A study of Mus musculus with 14 samples.

Results

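Tumours of a mouse melanoma line were compared between day 27 and day 3 of treatment with PLX4032, and each gene was then placed against untreated tumours. PLX4032 (vemurafenib) inhibits the kinase BRAF. The comparison uses 6 of the series' 14 tumours, the 4 taken on day 27 and the 2 taken on day 3, chosen by the group that the labels and column names give. The table lists 18481 genes, and the 15841 with at least 1 in 2 or more of the 14 columns were tested. The tumours grew from SMM102 cells injected subcutaneously into female C57BL/6J mice, 2 injections of 100000 cells per mouse, and treatment started once tumours measured 150 to 300 mm3. Treated mice, 6 to 8 weeks old when injected, received 50 mg/kg into the peritoneum on 5 days per week. The reference is the mean of 4 control tumours without PLX4032, 2 of day 3 and 2 of day 6. The labels describe these as untreated and the design text as given vehicle. The genotype of SMM102 and the tumour sizes on the sampling days are not given in the sources used here, so "relapse" is not a measured state in these data.

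BRAF passes growth signals from RAS to MEK and ERK, the MAPK cascade, which drives cyclin D1, ETS factors and its own feedback inhibitors. Blocking the cascade in BRAF-mutant melanoma is known to stop division and to be followed by an influx of immune cells, and resistance is often marked by renewed MAPK output or by other receptor tyrosine kinases. A whole tumour mixes cancer cells, immune cells, vessels and surrounding tissue, so in these bulk samples fewer cells of a type and less RNA per cell cannot be told apart.

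Changes are differences of log2(level + 1), where the level is the deposited signal on the TPM scale. A gene is called at an adjusted p under 0.05 in limma. The 4 tumours of day 27 are the left and right tumours of 2 mice, and the columns are not tied to mice, so every p-value with day 27 is too small. The labels use 1 animal number for both a day 6 control and a day 3 treated tumour. The controls end at day 6, so treatment and time cannot be told apart at day 27. Correlations of log2 levels were 0.981 to 0.990 among the day 27 tumours, 0.960 to 0.974 between them and the controls, and 0.860 to 0.909 between them and the day 3 tumours. Control day 6 tumours 1 and 2 differed most within a group (0.962), and some results that rest on either are given without it. The reference weights the day 3 and the day 6 controls equally. When 1 control is left out, its partner of the same day carries the whole share of that day. Of 20 melanocyte genes, 10 could be tested, and Mitf, the master regulator of the lineage, stood at 3.56 ± 0.90 (SD, n = 4) in the controls. Axl, a receptor kinase that marks the undifferentiated melanoma state, stood at 395 ± 38 (SD, n = 4).

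Between day 3 and day 27 the tumours moved back to the control level in most genes that treatment had shifted. In all, 8234 of 15841 genes (52%) were called, 3893 higher (24.6%) and 4341 lower (27.4%) at day 27. In 10308 genes (65.1%) the day 27 and day 3 tumours did not overlap. The 8234 genes were then sorted by position, with a band of 0.5 on the log2 scale, a fold of 1.41, on either side of the control mean. At day 3, 5246 of them lay outside the band, 2019 below and 3227 above. Of these, 4459 had returned into the band at day 27, 1849 from below and 2610 from above. Another 140 fell short of it, 25 from below and 115 from above, and 624 went past it to the other side, 133 from below and 491 from above. Another 23 genes lay further out on day 27 than on day 3, 12 below and 11 above. Of the 2988 called genes that had been inside the band at day 3, 2562 stayed there, 223 ended above and 203 below. Over the 5246 genes the median distance regained was 108% of the gap to the controls. Sorting only called genes leaves out genes that moved little between the days, so short and further genes are undercounted. Of all 6460 tested genes outside the band at day 3, called or not, 5185 returned, 442 fell short, 199 lay further out and 634 went past. The median distance regained over these was 102%. Returned means only that a mean lies within the band, and 68 of the 4459 returned genes were also called against the controls. Short and past are positions of means too. Of the 140 short genes 10 were called against the controls, and of the 624 past genes 188 were. The cholesterol synthesis gene Fdft1, on the edge of the band at 0.50, counts as returned. Quantile normalisation moved the median difference between the days over all genes from -0.017 to 0.17 and the share of calls that were higher from 47.3% to 61.2%.

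**Figure D1:**
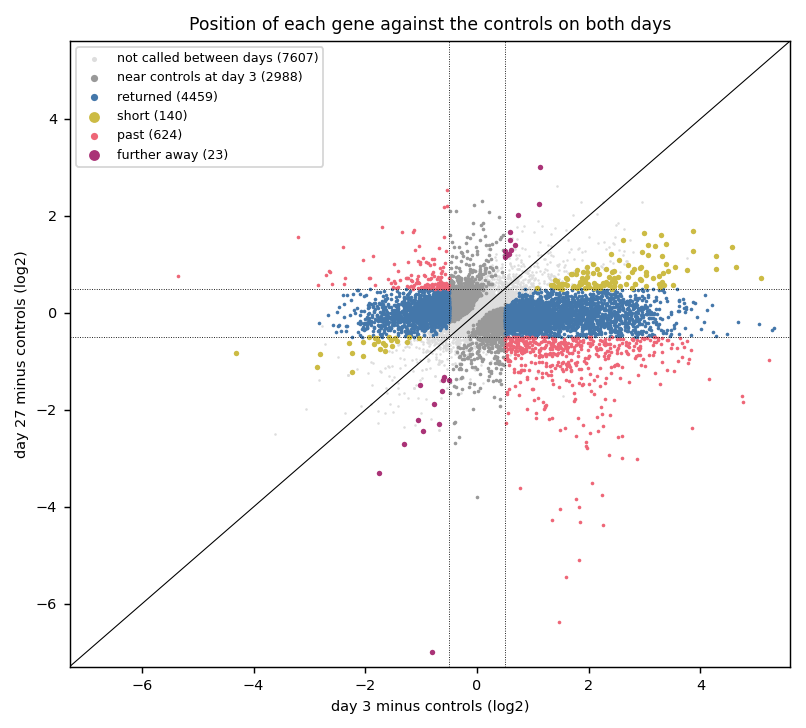
Log2 difference from the controls at day 3 (x axis) and at day 27 (y axis) for 15841 genes, 1 point per gene, coloured by position class for the 8234 called between the days. Dotted lines mark the band of 0.5, the solid line marks equal values on both days, and most coloured points lie in the horizontal band (4459 returned), with a tail below it on the right of genes past the controls from above. The lowest point is a clone-named transcript that the naming rule leaves out.

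Against the controls 1056 genes (6.67%) were called at day 27, 567 higher (3.58%) and 489 lower (3.09%), and 7249 (45.8%) at day 3. Of the 7249, 4671 (64.4%) had returned into the band by day 27. An unadjusted p under 0.05 held for 3422 genes (21.6%) at day 27. The day 27 count rested on single tumours: it was 511, 606 and 671 without day 27 tumour 1, 2 and 4, and 497 without control day 3 tumour 2. Averaging the day 27 tumours in pairs gave 162 to 250, depending on the pairing. The 7249 calls of day 3 were 4345 without day 3 tumour 2. Both comparisons use the same controls, so their values stand side by side below.

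**Figure D2:**
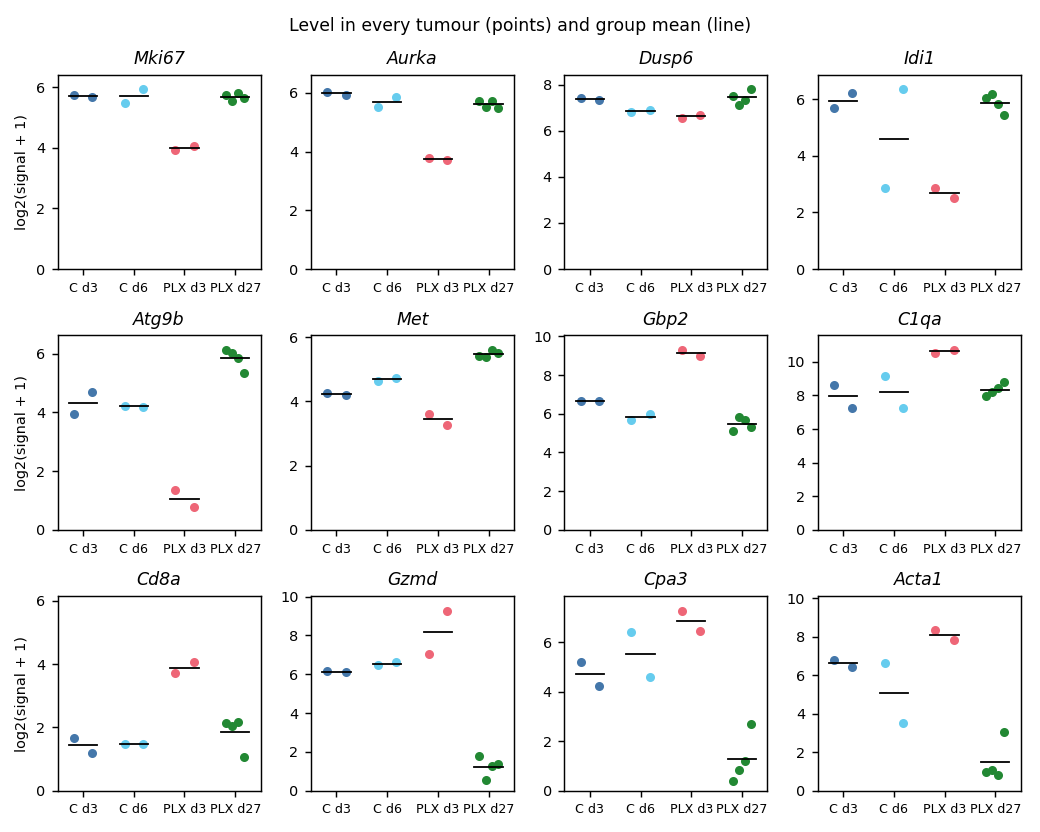
Log2(signal + 1) of 12 genes in each control (C), day 3 and day 27 PLX4032 tumour, with the group mean as a line. Mki67 and Aurka were low at day 3 and back at day 27, and Dusp6 rose within the band. Idi1 lay past in position without being called against the controls. Atg9b and Met ended above the controls, and Gzmd, Cpa3 and Acta1 ended far below them.

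Genes of cell division rose from day 3 and reached the control level. All 26 mitotic (G2/M) genes and all 26 genes of the G1/S step and DNA replication were called higher at day 27, against 24.6% of all genes. The median differences were 1.72 and 1.28, beside -0.017 over all genes. Mki67, a marker of cycling cells, read 14.3 and 15.7 at day 3 and 52.3, 46.2, 55.2 and 48.4 at day 27, with controls at 52.3, 49.7, 43.8 and 60.4. The days did not overlap, and day 27 lay within the range of the controls. The difference was 1.68 (SE 0.12, adjusted p = 8.9e-06), and against the controls it was -0.023, adjusted p = 0.93. Aurka, a mitotic kinase, went from 12.4 ± 0.65 (SD, n = 2) to 48.1 ± 4.3 (SD, n = 4), and Kif2c, a kinesin that trims microtubules at centromeres, from 8.91 ± 0.54 (SD, n = 2) to 33.0 ± 2.3 (SD, n = 4). Ccnb1, the mitotic cyclin, rose by 2.08 and Cdc20, which activates the ubiquitin ligase of anaphase, by 2.06. All 26 mitotic genes lay within the band at day 27, with a median of -0.24 against the controls. There 2 were called lower, and 9 without control day 6 tumour 1. Among replication genes Uhrf1, which maintains DNA methylation (1.76), Cdc45, part of the replicative helicase (1.63), and Pola1, the catalytic subunit of polymerase alpha, returned. Mcm2, another helicase subunit, was the replication gene called above the controls, with 91.3, 82.9, 110.3 and 79.3 at day 27, all above the control values of 72.9, 68.4, 62.6 and 59.3 (0.45, adjusted p = 0.039).

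Mitotic promoters often carry a CHR element (TTTGAA), bound by the MuvB complex, and CCAAT boxes, bound by NF-Y. Both were searched on both strands in the 250 bases before each start in RefSeq. Of the 26 mitotic genes 21 had a promoter entry, of which 9 (42.9%) held TTTGAA and 18 (85.7%) held CCAAT, against 13% and 40.1% of 10924 genes tested with an entry. Of 21 replication genes with an entry, 2 held the E2F site TTTCCCGC (9.52%, against 1.89% of all) and 3 held TTTGGCGC (14.3%, against 0.87%). The ETS site CCGGAAGT was in 0 of 15 promoters of MAPK targets, against 6.22% of all. The 2 promoters below belong to the mitotic genes with the smallest p that hold a match. For a gene with more than 1 RefSeq start, a match at any start was counted, and the start with the most matches is shown. The Kif2c start shown lies inside the gene as GENCODE places it (chr4:117159639-117182639). Each stretch has 120 bases of GRCm38.p6, with matches in capitals (TTCAAA is TTTGAA on the other strand). Both are on the minus strand, at chr4:117178773-117178892 and chr2:172370571-172370690.
Kif2c: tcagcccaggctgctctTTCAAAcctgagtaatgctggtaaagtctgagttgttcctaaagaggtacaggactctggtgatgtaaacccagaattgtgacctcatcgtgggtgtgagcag
Aurka: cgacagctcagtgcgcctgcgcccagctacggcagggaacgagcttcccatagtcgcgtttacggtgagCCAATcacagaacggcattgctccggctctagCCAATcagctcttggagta

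Transcripts of MAPK target genes, taken as a list, returned to the control level as well. Of 23 MAPK target genes 17 were called higher and 1 lower at day 27, with a median difference of 0.80 and a median of 0.021 against the controls. Ccnd1, which encodes cyclin D1, read 129.9 and 129 at day 3, 481, 435, 567 and 431 at day 27 and 488, 614, 331 and 478 in the controls. Its day 27 values all lay within the control range. The ETS factor gene Etv4 went from 17.4 ± 6.8 (SD, n = 2) to 103 ± 4.9 (SD, n = 4), and the chromatin gene Hmga2 from 56.4 ± 4.8 (SD, n = 2) to 287 ± 14 (SD, n = 4). Hmga1, its abundant relative, read 353 and 329.7 at day 3 and 2075, 1846, 2848 and 1796 at day 27, with controls at 2149, 3060.1, 2006 and 2679. Fosl1, an AP-1 subunit downstream of ERK, rose by 1.87 (SE 0.27, adjusted p = 0.00032). Among the feedback inhibitors Dusp6, a phosphatase of ERK, read 183, 139.8, 161 and 224 at day 27 against 93.2 and 103 at day 3 (0.82, adjusted p = 0.0016), and Spry4, a Sprouty protein that restrains RAS, rose by 0.99. Myc rose by 0.74. The member that fell was Fos, an immediate early gene. Fos had 37.7 and 70.7 at day 3 and 3.14, 5.07, 4.44 and 4.77 at day 27 (-3.31, SE 0.40, adjusted p = 0.00011). Of 17 immediate early genes 7 fell and 1 rose, with Atf3, a stress-induced factor (-2.94), Zfp36, which destabilises cytokine transcripts (-2.17), and Klf2 (-2.13) among those that fell. The count that fell was 7 to 10 with single tumours left out.

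Receptor tyrosine kinases and their ligands were called about as often as other genes. Of 21, 5 were called higher and 4 lower, against 24.6% and 27.4% of all genes, with 2 higher without day 3 tumour 1 and 2 lower without day 3 tumour 2. Met, the receptor for hepatocyte growth factor, read 11.3 and 8.61 at day 3, 41.2, 40.6, 47.7 and 44.4 at day 27 and 18.2, 17.2, 24.1 and 25.5 in the controls. All 4 day 27 tumours lay above all controls, and 13.8% of all genes had no overlap between day 27 and the controls in one direction or the other. The Met difference was 2.03 (SE 0.13, adjusted p = 7.2e-06) against day 3 and 1.01 (SE 0.11, adjusted p = 0.0014) against the controls. Igf1r, the receptor for insulin-like growth factor, returned (0.74), while its ligand gene Igf1 (-2.70) and Gas6, the ligand of Axl (-3.21), fell. Egfr was not called between the days (0.15, adjusted p = 0.69) and stood at 11.3 ± 1.6 (SD, n = 4) against 6.15 ± 3.5 (SD, n = 4) in the controls (0.90, adjusted p = 0.045). Its values overlapped there, as control day 6 tumour 1 (11.2) lay above day 27 tumours 2 and 4 (9.50 and 10.8). Pdgfrb (-0.012, adjusted p = 0.96) and Axl (0.12, adjusted p = 0.3) were not called between the days either, except Axl after quantile normalisation (0.27). Of 10 melanocyte genes 6 fell, 3 without day 3 tumour 2. Mitf read 6.55 and 10.4 at day 3 and 1.56, 1.63, 2.01 and 2.89 at day 27 (-1.64, adjusted p = 0.00062). Gpnmb, a glycoprotein of melanosomes and macrophages, ended below all controls at 2.18 ± 0.50 (SD, n = 4) against 8.86 ± 2.6 (SD, n = 4). Rab27a, which moves melanosomes, fell by 2.53.

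Cholesterol synthesis genes rose from day 3. Of 23 genes 19 were called higher and 1 lower at day 27, with a median difference of 2.05. Idi1, an isomerase of isoprenoid units, read 6.28 and 4.66 at day 3 and 64.5, 71.5, 55.5 and 42.5 at day 27 (3.19, SE 0.69, adjusted p = 0.003). The controls read 50.1, 74.3, 6.22 and 81.4, and control day 6 tumour 1 was the lowest of them. Fdps, the farnesyl diphosphate synthase, rose by 3.09, and Fdft1, which makes squalene, by 2.42. Ebp, a sterol isomerase, was the member that fell (-0.80, adjusted p = 0.00023). Relative to all 4 controls 12 of 23 genes counted as past and 8 as returned. Without control day 6 tumour 1, 0 were past and 22 returned. Without control day 3 tumour 1, 5 were past, and without control day 6 tumour 2, 18 were past. In that last fit control day 6 tumour 1 stood alone for the day 6 controls. Its list mean lay at -1.37 from the control mean, against 0.18, 0.57 and 0.62 in the other controls. None of the 23 was called against all 4 controls by limma, and 18 were called higher without control day 6 tumour 2.

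All 16 cholesterol genes with a RefSeq promoter entry held a CCAAT box, against 40.1% of all genes, and 2 (12.5%) held the sterol element TCACCCCA, against 1.62%. CCAAT did not follow the direction of change over the lists. It was in 93.3% of promoters of endoplasmic reticulum chaperones, which as a list did not move. MHC class I and class II genes, which fell, had it in 80% and 77.8%, and the ribosome biogenesis list, which rose, in 25%. The 2 stretches below are from the cholesterol genes with the smallest p that hold a match, with the start chosen as for the mitotic genes. Ebp is the gene that fell, and Dhcr7 is a rising reductase with no overlap between the days (13.2 and 34.4). The Dhcr7 start shown lies inside the gene as GENCODE places it (chr7:143823145-143848410). The stretches are chrX:8193563-8193682 on the minus strand and chr7:143830094-143830213 on the plus strand of GRCm38.p6, with CCAAT or its reverse ATTGG in capitals.
Ebp: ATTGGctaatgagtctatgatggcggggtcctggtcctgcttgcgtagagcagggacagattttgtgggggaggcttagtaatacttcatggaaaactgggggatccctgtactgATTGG
Dhcr7: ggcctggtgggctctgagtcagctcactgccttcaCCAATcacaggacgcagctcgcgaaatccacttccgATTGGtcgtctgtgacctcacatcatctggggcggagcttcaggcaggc

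Growth metabolism rose with division. Of 22 genes of ribosome biogenesis and Myc targets 21 were called higher, with a median difference of 1.04. Dkc1, the pseudouridine synthase of small nucleolar particles (1.71), Nop58, a core protein of such particles (1.55), and Cad, which starts pyrimidine synthesis (1.35), returned to the band. Polr1a, the large subunit of RNA polymerase I, went past it. It read 12.1 and 11.1 at day 3 and 36.4, 37.1, 48.3 and 39.7 at day 27, with controls at 23.2 ± 0.24 (SD, n = 4) (0.76, SE 0.11, adjusted p = 0.0052 against the controls). Of 18 genes of the ATF4 amino acid response 9 rose and 1 fell. Asns, the asparagine synthetase, read 10.04 and 9.26 at day 3, 84.3, 68.0, 108 and 93.1 at day 27 and 35.8, 62.0, 21.8 and 42.4 in the controls, and its day 27 tumours all exceeded the controls (1.18, adjusted p = 0.015). Phgdh, the first enzyme of serine synthesis, also ended above all controls at 236 ± 37 (SD, n = 4) against 167 ± 8.4 (SD, n = 4). Shmt2, a mitochondrial enzyme of one-carbon metabolism (2.02), and Slc7a5, a carrier of large amino acids (1.93), returned. Ribosomal protein genes moved little, with a median of 0.34 and 10 of 21 called higher, 6 and 2 without day 3 tumour 1 and 2, and 16 and 18 under median-of-ratios scaling and quantile normalisation.

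**Figure D3:**
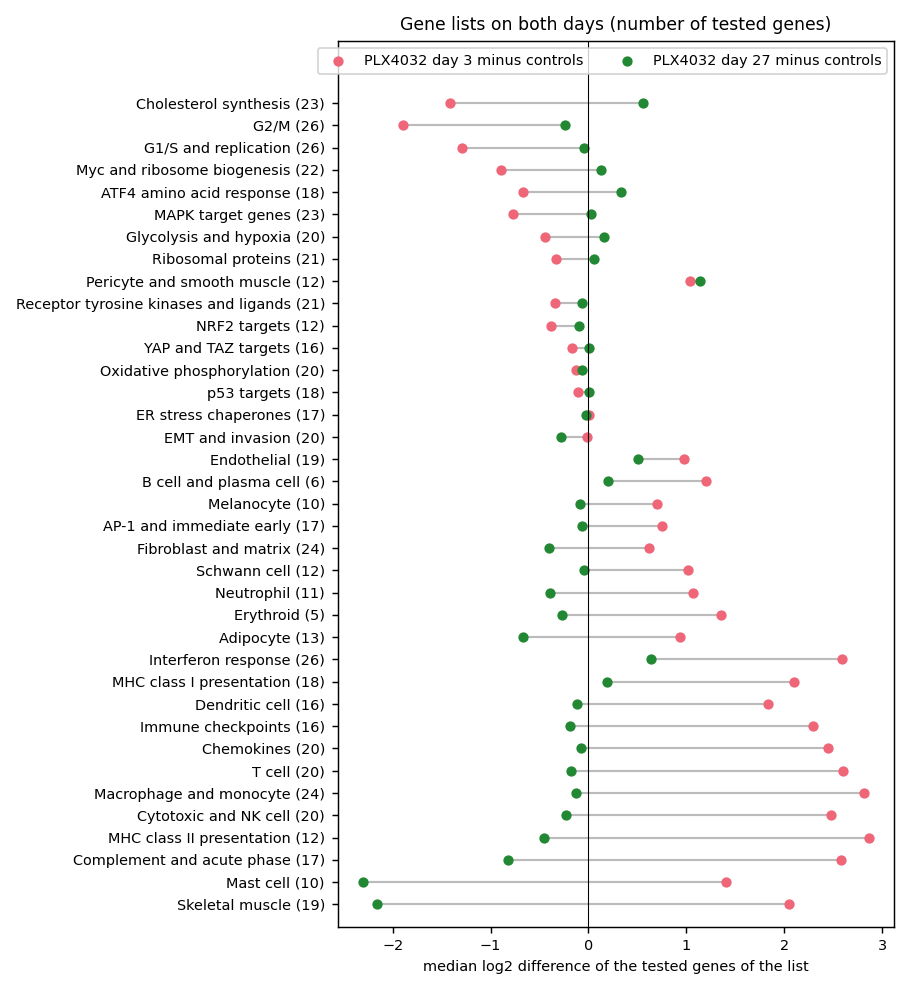
Median log2 difference from the controls at day 3 (red) and day 27 (green) over the tested genes of 37 lists with at least 5 tested genes, ordered by the median difference between the days. Division and cholesterol lists run from below 0 at day 3 to near or above it, most immune lists run from above 1 down to within 0.5 of the controls, complement ends at -0.82 and interferon at 0.64, and the mast cell and skeletal muscle lists end below -2.

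Lymphocyte genes were high at day 3 and fell to the control level or below it. All 20 T cell genes and all 20 cytotoxic and NK cell genes were called lower at day 27, against 27.4% of all genes, with median differences of -2.75 and -3.20. The T cell list kept 18 to 20 calls with single tumours left out. Cd8a, a co-receptor chain on killer T cells, read 12.2 and 15.7 at day 3, 3.36, 3.16, 3.48 and 1.10 at day 27 and 2.21, 1.29, 1.79 and 1.76 in the controls. The days did not overlap (-2.04, adjusted p = 0.015), though the call was lost without either day 3 tumour (-2.21 and -1.87). Cd3d, a T cell receptor subunit (-2.16), Foxp3, the factor of regulatory T cells (-2.18), and Cd5 (-3.02) returned. Among 16 checkpoint genes 15 fell, 11 to 15 with single tumours left out. Cd274, which encodes PD-L1, read 52.0 and 69.6 at day 3 and 4.18, 6.25, 4.85 and 6.01 at day 27, beside 6.59 ± 2.4 (SD, n = 4) in the controls. Pdcd1lg2, the second PD-1 ligand (-3.48), the inhibitory receptor gene Ctla4 (-3.36) and the costimulator genes Icos (-3.27) and Tnfrsf4 (-2.54) fell too.

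The 3 largest falls among the named genes were granzymes, serine proteases of killer lymphocytes. Gzmg read 135 and 655 at day 3 and 0.398, 0.198, 0.274 and 0.382 at day 27, while the controls held 85.1, 88.0, 129 and 137. Day 27 lay far below every control (-6.37, SE 0.35, adjusted p = 3.7e-05) and the gene counts as past. Gzmf, Gzmd and Gzme were also past, with differences of -7.06, -6.91 and -6.17 between the days and of -5.46, -5.09 and -4.32 against the controls. Gzma, in another cluster, ended at 1.17 ± 0.38 (SD, n = 4) against 11.6 ± 6.8 (SD, n = 4) (-2.38, adjusted p = 0.027). In the cytotoxic list 8 of 20 genes were past the controls and 12 returned, and 5 were called lower than the controls, or 3 without any 1 day 27 tumour, either day 3 control or control day 6 tumour 2. Day 3 tumour 2 held more of all 5 granzymes than day 3 tumour 1.

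Gzmd, Gzme, Gzmf and Gzmg are neighbouring copies on chromosome 14, and reads can be shared between them, so their single levels are uncertain. The 120 bases before the starts of Gzmd (chr14:56132594-56132713) and Gzme (chr14:56120626-56120745) matched at 114 of 119 aligned positions (95.8%). Both stretches are on the minus strand of GRCm38.p6 from RefSeq. They lie before the starts, and the likeness of the transcripts themselves was not measured.
Gzmd: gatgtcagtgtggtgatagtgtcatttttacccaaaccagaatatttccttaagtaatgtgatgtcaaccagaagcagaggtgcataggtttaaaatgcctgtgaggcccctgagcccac
Gzme: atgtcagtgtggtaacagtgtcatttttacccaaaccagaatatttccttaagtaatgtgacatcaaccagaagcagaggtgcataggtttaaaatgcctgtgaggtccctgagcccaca

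Myeloid, complement and antigen presentation genes fell from their day 3 peak. Ptprc, the pan-leukocyte gene, read 121 and 183 at day 3, 14.1, 14.5, 16.3 and 34.1 at day 27 and 29.2, 15.7, 24.8 and 6.01 in the controls. Day 27 tumour 4 stood above the other 3, and the days did not overlap (-2.94, adjusted p = 0.0014). Of 24 macrophage and monocyte genes 22 fell, with a median difference of -2.98. C1qa, a complement gene of macrophages, went from 1576 ± 143 (SD, n = 2) to 332 ± 82 (SD, n = 4), with the controls at 319 ± 207 (SD, n = 4). Cd68, a lysosomal glycoprotein (-3.16), Folr2, a folate receptor of resident macrophages (-4.74), the scavenger receptor gene Marco (-5.63) and Retnla, a marker of alternative activation (-5.62), fell. Retnla read 63.6 and 50.1 at day 3 and 0.351, 0.116, 0 and 0.227 at day 27. All 17 complement and acute phase genes fell, with a median of -3.37, and 11 were past the controls, or 6 without control day 6 tumour 1. C3, the central complement component, read 363 and 628 at day 3, 3.01, 5.45, 5.84 and 4.05 at day 27 and 39.7, 23.9, 24.1 and 3.02 in the controls. Saa3, an acute phase protein, went from 1122 ± 503 (SD, n = 2) to 12.4 ± 9.0 (SD, n = 4), and Cfp, which stabilises the complement convertase, fell by 3.32. C2 (-0.92, adjusted p = 0.033) and F13a1, a transglutaminase of macrophages and platelets (-1.50, adjusted p = 0.033), were called below the controls. All 18 genes of MHC class I presentation and all 12 of class II fell, with medians of -1.87 and -3.35. H2-Ab1, a class II chain, went from 2352 ± 420.0 (SD, n = 2) to 185 ± 76 (SD, n = 4), and Ciita, the class II transactivator, from 30.3 ± 6.4 (SD, n = 2) to 1.74 ± 0.76 (SD, n = 4). The class I genes Tap2, a peptide transporter (-1.91), Tapbp, which bridges it to class I (-1.83), and H2-T23 (-2.82) returned. H2 genes resemble each other, and their reads can be shared. Of 20 chemokines 15 fell, with Ccl7 (-3.29), Ccl8 (-3.75) and Cxcl5 (-2.45) among them.

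Interferon response genes fell, and the median of the list stayed above the controls, though the list means of single tumours overlapped. Those of the day 27 tumours were 0.16, 0.73, 0.45 and 0.54, all within the control range of -0.65 to 0.81. Of 26 genes 17 were called lower, 12 to 20 with single tumours left out, and the median was 0.64 above the controls at day 27, against 2.60 at day 3. By position 14 were short of the controls, 10 returned and 2 past. That split rested on control day 3 tumour 2, without which 3 were short and 20 returned. None of the 26 was called against all 4 controls by limma, and 1 was without control day 3 tumour 1. Gbp2, an interferon-induced GTPase, read 631 and 507 at day 3, 34.0, 56.8, 49.8 and 38.5 at day 27 and 99.1, 100.5, 50.9 and 61.6 in the controls. Cxcl9, a chemokine induced by interferon gamma, fell by 4.81 (SE 0.64, adjusted p = 0.00019) and ended at 19.5 ± 3.6 (SD, n = 4). Gbp2 and Cxcl9 counted as past and Gbp5 (-3.42) as returned.

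The interferon-stimulated response element was searched on both strands. It was present before 11 of 18 interferon genes with an entry (61.1%), against 3.4% of all. The 2 interferon genes with the smallest p that hold it are shown, with the start chosen as for the mitotic genes. The Gbp5 start shown lies inside the gene as GENCODE places it (chr3:142493978-142522344). The stretches are chr3:142620543-142620662 and chr3:142496769-142496888 on the plus strand of GRCm38.p6, with the match in capitals and read on the other strand.
Gbp2: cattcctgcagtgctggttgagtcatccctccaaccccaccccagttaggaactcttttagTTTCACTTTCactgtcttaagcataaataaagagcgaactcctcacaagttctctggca
Gbp5: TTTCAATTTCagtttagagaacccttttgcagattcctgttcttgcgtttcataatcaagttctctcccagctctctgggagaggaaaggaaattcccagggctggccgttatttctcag

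Mast cell genes ended below the controls at day 27. Of 10 genes 9 were called lower than day 3, 8 were past the controls and 7 were called below them, against 3.09% of all genes. Cpa3, the mast cell carboxypeptidase, read 154 and 87.7 at day 3, 0.303, 0.788, 1.32 and 5.43 at day 27 and 35.4, 17.8, 84.6 and 23.2 in the controls. Every day 27 tumour lay below every control, tumour 4 being the highest (-3.83, SE 0.52, adjusted p = 0.0036). Cma1 and Mcpt4, mast cell chymases on chromosome 14, ended at 2.82 ± 3.4 (SD, n = 4) and 3.20 ± 3.0 (SD, n = 4) against 57.2 ± 45 (SD, n = 4) and 72.5 ± 32 (SD, n = 4). Fcer1a, the alpha chain of the IgE receptor, ended at 0.543 ± 0.70 (SD, n = 4) against 8.17 ± 6.5 (SD, n = 4). Mcpt1, another chymase, was at the control level at day 3 (-0.0061) and fell afterwards (-3.80). With the day 27 tumours averaged in pairs 4 of the 7 calls against the controls were made under each pairing. The summed level of the list was 655 to 1030 at day 3, 66.1 to 108 at day 27 and 205 to 734 in the controls. Skeletal muscle genes also ended low in the day 27 tumours, and the part of the surrounding tissue in the fall of the mast cell genes was not tested.

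Genes of surrounding tissue and stroma divided. All 19 skeletal muscle genes fell from day 3, with a median of -4.33, and 17 were past the controls. Acta1, skeletal actin, read 330.2 and 227 at day 3, 0.949, 1.09, 0.754 and 7.29 at day 27 and 111, 85.8, 97.6 and 10.4 in the controls. Tnnc2, fast troponin C, and Myl1, a myosin light chain, fell by 5.99 and 5.55. The summed level of the muscle list was 1147 to 1266 at day 3, 16.1 to 44.7 at day 27 and 59.4 to 455 in the controls, control day 6 tumour 2 being the lowest of these. Against the controls 3 muscle genes were called lower, 0 under every pairing, and 0 to 6 with single tumours left out, 6 of them without control day 6 tumour 2. Of 13 adipocyte genes 12 fell, 7 without day 3 tumour 1. Adipoq, the hormone adiponectin, was at 3.87 ± 3.6 (SD, n = 2) and 0.0425 ± 0.034 (SD, n = 4). Of 24 fibroblast and matrix genes 15 fell and 1 rose. Dcn and Lum, small matrix proteoglycans, ended below every control, Dcn at 104, 127, 116 and 103 against 205, 332, 160.5 and 263 (-1.04, adjusted p = 0.013). Col1a1, the main fibrillar collagen chain, returned to 384 ± 68 (SD, n = 4) from 892 ± 136 (SD, n = 2).

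Vessel genes kept a median above the controls, though the list means of single tumours overlapped. Of 19 endothelial genes 5 fell, a share near the 27.4% of all genes, and 1 rose. Of these, 2 fell without day 3 tumour 2 and 3 without day 27 tumour 2 or 4 or under any pairing. The endothelial median was 0.51 above the controls at day 27, and 2 of the 19 genes were called higher than the controls. The list means of the day 27 tumours were 0.64, 0.17, 0.81 and 0.20, against -0.35 to 0.53 in the controls. Pecam1, an adhesion molecule of endothelium, read 50.2 and 79.3 at day 3, 37.9, 24.8, 43.5 and 28.1 at day 27 and 22.5, 16.9, 31.5 and 12.9 in the controls (-0.93, adjusted p = 0.035 between the days), a call lost without day 3 tumour 2 (-0.60), day 27 tumour 2 (-0.80) or day 27 tumour 4 (-0.85). Tek, the angiopoietin receptor, returned (-1.31). Of 12 pericyte and smooth muscle genes 3 rose and 3 fell, shares near those of all genes, and the median was 1.14 above the controls, against 1.03 at day 3. Against the controls 5 of 12 were called higher, where 3.58% of all genes were, 8 without control day 6 tumour 1, 3 without day 27 tumour 1 or 3 or control day 3 tumour 2, and 1 to 3 under the pairings. Mcam, an adhesion molecule of pericytes and melanoma cells, read 89.4, 57.9, 89.0 and 61.3 at day 27, above all controls (33.2, 27.6, 34.2 and 23.9), and Cspg4, the NG2 proteoglycan of pericytes and melanoma cells, fell short from below at 41.0 ± 5.1 (SD, n = 4) against 66.7 ± 28 (SD, n = 4). Both rose from day 3, and Cspg4 was not called against the controls by limma (adjusted p = 0.26). Des, the muscle filament protein desmin, fell from 104 ± 4.6 (SD, n = 2) to 1.69 ± 0.49 (SD, n = 4) (-5.30, adjusted p = 0.0012) and stood at 23.7 ± 14 (SD, n = 4) in the controls (-2.93, adjusted p = 0.054). Myh11, the smooth muscle myosin, fell as well (-1.14, adjusted p = 0.022), a call lost without day 3 tumour 2 (-0.85) and under every pairing.

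For the other lists the shares over all genes were 24.6% higher and 27.4% lower, and many counts lie near them. Among 20 genes of glycolysis and hypoxia 7 rose and 1 fell, 2 rising without day 3 tumour 1, and among 20 of oxidative phosphorylation 5 rose and 1 fell, 2 and 1 rising without day 3 tumour 1 and 2. Of 18 p53 targets 6 rose and 3 fell, of 17 chaperones of the endoplasmic reticulum 5 rose and 4 fell, and of 12 NRF2 targets of the oxidant response 4 rose and 3 fell. Of 20 genes of invasion and mesenchymal state 2 rose and 9 fell, 4 falling without day 3 tumour 2. Of 16 YAP and TAZ targets 7 rose and 4 fell, 1 falling without day 3 tumour 2. Among cell type lists 15 of 16 dendritic cell genes, 7 of 11 neutrophil genes (4 without day 3 tumour 2), 3 of 6 B cell genes and 7 of 12 Schwann cell genes fell. No gene of the keratinocyte (3), erythroid (5) and Y-linked (3) lists was called by limma between the days.

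Xist, made by the inactive X chromosome of female cells, fell between the days. Xist read 51.3 and 78.5 at day 3, 17.0, 14.5, 13.01 and 16.0 at day 27 and 19.4, 12.0, 24.7 and 7.98 in the controls (-2.01, adjusted p = 0.001). Ddx3y, which the female hosts lack, read 10.9 and 11.4 at day 3 and 12.2, 22.99, 16.5 and 25.1 at day 27, and was not called (0.68, adjusted p = 0.087) except after quantile normalisation (0.84) or without day 27 tumour 1 (0.87). The part of the share of host cells in the changes above was not tested.

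Some of the largest rises ended past the controls. Atg9b, which encodes a lipid scramblase of autophagy, read 1.58 and 0.700 at day 3, 69.0, 64.6, 56.9 and 39.3 at day 27 and 14.5, 24.9, 17.8 and 17.1 in the controls. All day 27 tumours lay above all controls (1.57, SE 0.24, adjusted p = 0.0051), and the difference from day 3 was the largest rise named, 4.77 (SE 0.29, adjusted p = 5.9e-06). Esm1, a proteoglycan secreted by endothelium, stood at 97.9 ± 20.3 (SD, n = 4) against 7.96 ± 2.8 (SD, n = 2) at day 3 and 31.2 ± 19 (SD, n = 4) in the controls. Prkg2, a cGMP-dependent kinase, went past (0.79, adjusted p = 0.025), and Nefl, the light neurofilament chain (0.85, adjusted p = 0.064), and Mmp10, a matrix metalloproteinase (1.10, adjusted p = 0.31), lay past in position without being called against the controls. Nptx1, a neuronal pentraxin, rose by 3.48 yet fell short. It read 56.2, 64.0, 47.9 and 35.7 at day 27 against 73.0, 135, 41.1 and 156 in the controls. Hao1, a peroxisomal oxidase (-0.63 against the controls), and Ngef, a neuronal exchange factor (-1.12), were also short, the Ngef call between the days being lost without either day 3 tumour (1.86 and 1.66). From above, the C-type lectin receptor genes Clec12a (0.95) and Clec4a1 (0.57), the chemokine gene Ccl5 (0.89) and Batf3, a factor of dendritic cells (0.58), were the short genes with the largest falls. These short genes, from below and from above, were short in position only. None was called against the controls by limma, with adjusted p from 0.11 (Hao1) to 0.53 (Clec4a1).

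A few genes left the control level on both days. Col15a1, a basement membrane collagen, read 14.7, 8.55, 17.2 and 13.7 in the controls, 20.3 and 43.0 at day 3 and 62.0, 56.4, 48.9 and 114 at day 27 (2.25, adjusted p = 0.0033 against the controls). Its rise between the days was not called without day 3 tumour 1 (0.62), nor was that of Mcam (0.44). Hotairm1, a noncoding RNA of the Hoxa cluster (3.01, adjusted p = 0.0015), and Samd14 (1.66, adjusted p = 0.0026) also moved further up. Downwards went the laminin gene Lama5 (-3.29, adjusted p = 0.0037), the netrin gene Ntn1 (-2.71, adjusted p = 0.0035), the prostaglandin receptor gene Ptgfr (-2.22, adjusted p = 0.004) and Twist2, a mesenchymal transcription factor (-2.44, adjusted p = 0.01). In all 4 the call between the days was lost under every pairing of the day 27 tumours and without either day 3 tumour. Genes inside the band on day 3 that rose out of it later included Gng11, a G protein subunit. Gng11 read 307, 342, 364 and 316 at day 27 against 107, 85.1, 132 and 114 in the controls. It read 73.1 and 81.7 at day 3 (2.09, SE 0.14, adjusted p = 7.9e-06 between the days). Though inside the band, it was called lower than the controls at day 3 (-0.48, adjusted p = 0.016). Apln, the vascular peptide apelin, rose by 2.20 and Camk1g, a calcium-dependent kinase, by 2.48. Genes that fell out of the band included Per1, a gene of the circadian clock (-2.32), Enah, an actin regulator (-2.30), and the collagen gene Col4a6 (-2.23).

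Chromosome 6 held a larger share of the genes that ended above the controls than of the genes tested. It carried 811 of the tested genes (5.12%) and 31 of the 133 past from below (23.3%), 70 of the 223 that rose out of the band (31.4%) and 5 of the 11 further up (45.5%). Met, Asns, Polr1a, Mcm2, Gng11 and Hotairm1 lie on it. Its median over all tested genes was 0.28 against the controls, beside 0.0064 for all genes. Against the controls 207 of its genes (25.5%) were called higher, against 3.58% of all, and the median stayed positive in each of 8 stretches of 20 Mb, from 0.17 to 0.37. The 4 day 27 tumours gave chromosome medians of 0.21, 0.25, 0.33 and 0.30, those of day 18 gave 0.16 and 0.21, those of day 6 under PLX4032 gave 0.025 and 0.047, and the day 3 tumours gave 0.077 and 0.13. The count was 133 and 111 without day 27 tumour 1 and control day 3 tumour 2, and 41 to 73 under the pairings, while the median lay between 0.19 and 0.32 under all 24 alternatives. Braf itself lies on chromosome 6 and was named after its values were seen. It stood at 5.605 ± 0.33 (SD, n = 4) in the controls and 7.85 ± 0.94 (SD, n = 4) at day 27 (0.42, adjusted p = 0.044). Chromosome 19 went the other way, with a median of -0.19 and 71 of 499 genes (14.2%) called lower, against 3.09% of all, and 27 to 36 without day 27 tumour 1, 2 or 4 or control day 3 tumour 2. That count was 8 to 15 under the pairings and 11 against the day 6 controls alone. The chromosome 19 medians of the single tumours were -0.19, -0.26, -0.11 and -0.23 at day 27, -0.10 in both at day 3, -0.17 and -0.15 at day 6 under PLX4032, and -0.11 and -0.10 at day 18, so that the earlier treated tumours lay below the controls too. Day 27 tumour 3 was also high on chromosomes 15 (0.21) and 18 (0.18).

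**Figure D4:**
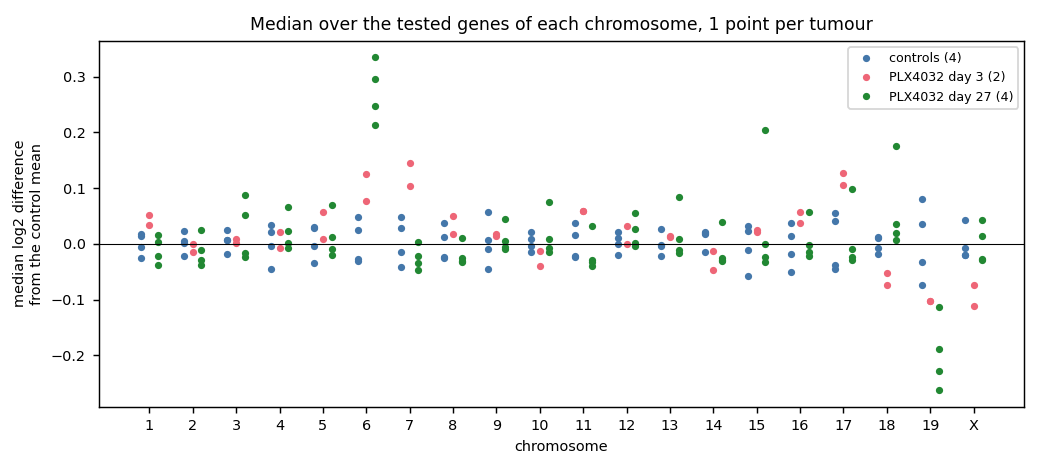
Median log2 difference from the control mean over the tested genes of each chromosome, 1 point per tumour, with a control tumour set against the other 3 controls. On chromosome 6 the 4 day 27 tumours lie between 0.21 and 0.33, and on chromosome 19 between -0.26 and -0.11, while most other medians lie near 0.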

How the data were processed

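Per the labels, RNA of 14 frozen whole tumours was extracted with Trizol and sequenced from TruSeq libraries. The authors deposited these as 1 table of signal values on the TPM scale. Kallisto, sleuth and mm10 are named in the submitters' processing notes, without versions, and the sources used here do not say whether counting used strand. Column totals ran from 879385 to 1084401 and 5 of 14 exceeded the total that TPM allows, so the deposited signal is treated as rescaled TPM, and the depth is unknown. No interval that needs read numbers is given.

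Columns were assigned to groups by their names and the labels. The column numbers name tumours and do not tie them to mice, and nothing says that other replicates came from separate animals, so p-values measure the spread between these samples. Genes with a value of at least 1 in at least 2 columns were kept (15841), and log2(value + 1) of all 14 tumours was fitted with limma 3.58.1 in R 4.3.3, as 6 groups with 8 residual degrees of freedom, a variance trend and Benjamini-Hochberg adjustment over all genes tested at 0.05. Differences on this scale understate the change of low genes. The smallest p that an exact permutation test of 4 against 2 tumours can give is 0.0667, two-sided. The procedure was tested on simulated data. Tables were handled in Python 3.11.15 with pandas 2.3.3. Of the listed symbols 17811 (96.4%) matched an official symbol. GENCODE M21 gave chromosomes for 17772 on GRCm38, and promoters came from RefSeq on GRCm38.p6.

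The members and lists were chosen with earlier results of these data known. Named genes were the 10 largest rises and falls and the 4 largest changes of each position class, among called genes without overlap and with a mean of at least 5 on the higher side. Predicted genes, pseudogenes, clone names and receptor or immunoglobulin segments were left out of these. The rule adds up to 4 genes of smallest p per list described and a fixed set of markers. Alternatives were other pseudocounts, filters, bands, scalings, fits and control groups, averaging the day 27 tumours in pairs, and leaving out each tumour. Results for some genes are not reported here.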

Additional observations from a re-analysis of the deposited data

Results flagged for a closer look

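One day 27 tumour stood apart from the other 3 in 12 of the 145 named genes, and chance marks about 1 in 20 groups. Day 27 tumour 4 held the highest level of the muscle genes Acta1 (7.29) and Myl1 (3.02), the mast cell genes Cma1 (7.80) and Fcer1a (1.58), the macrophage gene Folr2 (8.22), the leukocyte gene Ptprc (34.1) and Gas6 (10.1). It held the lowest level of Cd8a (1.10) and of the noncoding RNA Platr16 (8.91). Day 27 tumour 2 held the highest level of Lyz1 (1.63) and Marco (0.653) and the lowest of Spry4 (31.2). Their part in the results was not tested beyond leaving each tumour out.

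The change from the controls differed between the days in 8234 genes, by the limma contrast of day 27 against day 3. In 269 of these the gene was called against the controls on both days, in opposite directions. Named genes on opposite sides of the controls on both days, with the log2 difference of day 27 minus day 3, were, among those that rose, Asns 3.05, Atg9b 4.77, Esm1 3.48, Gng11 2.09, Mcm2 1.89, Met 2.03, Phgdh 2.02, Polr1a 1.70 and Prkg2 3.49. Among those that fell they were C2 -3.28, Cma1 -5.83, Cpa3 -5.59, Dcn -2.27, F13a1 -3.70, Fcer1a -3.91, Gpnmb -3.65, Gzma -6.22, Gzmd -6.91, Gzme -6.17, Gzmf -7.06, Gzmg -7.83 and Lum -2.48.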

How the results depend on the processing

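The 8234 genes called between day 27 and day 3 became 6933 to 8981 under the settings that keep all tumours, and 5738 to 8329 with 1 tumour left out, the lowest without day 3 tumour 2. The 1056 calls against the controls became 231 with the day 6 controls alone. Averaging the day 27 tumours as 1+2 and 3+4, 1+3 and 2+4, and 1+4 and 2+3 gave 232, 162 and 250 such calls, with fewer samples in the fit, and left 81, 77 and 85 of the 140 genes short of the controls by number. Leaving out 1 tumour gave 497 to 1140 calls against the controls at day 27, 4345 to 7523 at day 3 (7249 with all), 3602 to 4641 returned genes, 56 to 414 short and 436 to 902 past. A pseudocount of 0.1 gave 239 short and 1068 past genes, and one of 5 gave 64 and 243. A band of 0.25 gave 516 short and 1861 past, a band of 1 gave 2527 returned, 18 short and 146 past, and the range of the controls as band gave 469 short and 2367 past. The causes of these shifts were not tested. No named gene called between the days changed direction in the alternatives run. Pdgfrb, which was not called (-0.012), changed sign under median-of-ratios scaling (0.054), quantile normalisation (0.039), sample weights (0.0039) and without day 27 tumour 2 (0.023), and was not called there either. Of 145 named genes, 14 lost the call with some tumour left out and 9 under some other setting. No paired analysis was possible because the column numbers are not tied to mice. Depth, being unknown, sets no stated limit, and values near 0 are the least certain.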
